A study of Mus musculus with 27 samples.

Results

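Genes of DNA repair and DNA damage signalling were followed in the irradiated mouse intestine. The set was a list of 42 gene names, matched by name in the deposited expression table. All 42 were found among its 55401 genes: 41 by name and H2afx by its gene ID, since the table lists it as H2ax. A gene counted as measured where its FPKM (read fragments scaled to transcript length and library depth) reached 1 in 3 or more of the 27 libraries; 23 of the 42 passed, and 11118 of all genes did. The other 19 stayed below that level and are described separately.

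The libraries were bulk RNA-seq of intestine from male wild-type C57BL/6 mice aged 6 to 8 weeks, in 9 groups of 3. The groups were 15 Gy sampled at 6 h, 24 h and 3 d, 6 Gy at 6 h and 24 h, 15 Gy with CBLB502 at 24 h, 6 Gy with CBLB502 at 24 h, CBLB502 without irradiation at 24 h, and an untreated control. Gamma rays came from a 60Co source at 72 R per minute. CBLB502, a flagellin-derived agonist of Toll-like receptor 5 used as a radioprotectant, was injected at 0.2 mg/kg, and 0.5 h before irradiation in the 15 Gy group. The series' design text describes the control as PBS-injected and lists fewer groups, while the sample labels give no treatment for it; neither says that each library was a separate mouse, so p-values measure the spread between libraries, which may be technical. All 8 treated groups are compared with the same 3 control libraries. In bulk tissue, fewer cells of a type and less RNA per cell cannot be told apart.

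Ionising radiation breaks both strands of DNA as well as single strands and oxidises bases. The broken end is bound by the Mre11-Rad50-Nbs1 complex or by the Ku heterodimer; the first activates the kinase ATM, which phosphorylates histone H2AX and recruits the scaffold MDC1, and the second leads to end joining by XRCC4 and DNA ligase IV. Much of this response is carried out by modifying proteins already present, so transcript levels of its genes are a part of it. In the gut, crypt cells divide and differentiated enterocytes on the villus do not, and genes of homologous recombination are known to be expressed mainly in dividing cells.

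Total counts were 57438640 to 87083059 per library. The 9 enterocyte markers were all measured, with a summed level of 47800 to 165000 CPM (counts scaled to library depth) in every library. Irradiation was visible in Ccng1, a p53 target: it averaged 114 ± 7.25 CPM at 6 Gy 6 h and 52.6 ± 13.1 CPM at 15 Gy 6 h, against 19.5 ± 2.38 CPM in control (SD, n = 3 each), and was called higher in all 7 irradiated groups. Cdkn1a and Mdm2, also p53 targets, did not follow Ccng1. Cdkn1a averaged 336 ± 38.2 CPM at 6 Gy 6 h, 550 ± 122 CPM at 15 Gy 6 h and 236 ± 23.3 CPM at 6 Gy 24 h, against 413 ± 10.9 CPM in control. Mdm2 averaged 43.8 ± 5.8 CPM at 6 Gy 6 h and 36.3 ± 7.23 CPM at 15 Gy 6 h, against 51.1 ± 10.2 CPM in control. Of 20 measured p53 genes outside the list, 10 were called higher and 3 lower at 6 Gy 6 h, beside 28.4% of all genes tested. At 15 Gy 24 h there were 11 higher and 0 lower, beside 4.94%. At 6 Gy 24 h there were 10 higher and 4 lower, beside 33%, and at 15 Gy 3 d 9 higher and 3 lower, beside 29.4%. The 6 libraries of 6 Gy at 24 h, without and with CBLB502, stood apart: the 6 exocrine pancreas markers summed to 40.2 to 4320 CPM and 138 to 1290 CPM, against 0 to 0.149 CPM in control, where 4 of the 6 were at 0 counts. Their 4 fibroblast markers summed to 30.1 to 40.6 CPM and 28 to 39.1 CPM, against 0.308 to 2.79 CPM in control, with none at 0. Their total counts were 57438640 to 68539356, against 75456575 to 86852759 in control. Tissue make-up, depth and dose therefore cannot be told apart in these 6 libraries. The 6 Gy 6 h libraries also differed from control in markers: 8 of 9 enterocyte and 4 of 4 goblet markers were called lower, and 2 of the 6 pancreas markers higher. There the goblet markers summed to 1340 to 4210 CPM, against 4080 to 7440 CPM in control, and the pancreas markers to 2.01 to 10.4 CPM, with none at 0 in that group. Their part in the 6 Gy 6 h results was not tested.

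Most of the genes were at low levels. Per length of transcript, Ddb1, the adaptor of the CUL4 ubiquitin ligase that recognises damaged bases and has many other substrates, was highest with a mean of 25.8 FPKM over the 27 libraries. Ercc3, a helicase of the transcription factor TFIIH, followed at 10.2 FPKM and H2afx at 4.24 FPKM. Parp2 had a mean of 2.63 FPKM, Xpa 2.48 FPKM and Nbn 1.95 FPKM. At the other end, Fancd2 had 0.0238 FPKM and Fanci, its partner in crosslink repair, 0.0387 FPKM. Of the 8 damage signalling genes, Mdc1 and H2afx were measured, while Atm (0.0778 FPKM), Atr (0.0647 FPKM) and their kinases Chek1 (0.119 FPKM) and Chek2 (0.589 FPKM) were not. All 8 nucleotide excision genes were measured and none of the 3 of homologous recombination. Just inside the filter were Mdc1 and Parp1, which reached 1 FPKM in 3 libraries; just outside were Chek2, Rad17, Mre11a and Brca1, which reached it in 2. Mdc1, Parp1 and Apex1 passed only through libraries of 6 Gy at 24 h, so that their being higher there follows in part from the filter. Xrcc5 reached 1 FPKM in 6 libraries, outside 6 Gy at 24 h only at 15 Gy 3 d, at 1.76 and 1.31 FPKM. It too would not have passed without the 6 Gy 24 h libraries, and the same limit holds for it there.

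**Figure D1:**
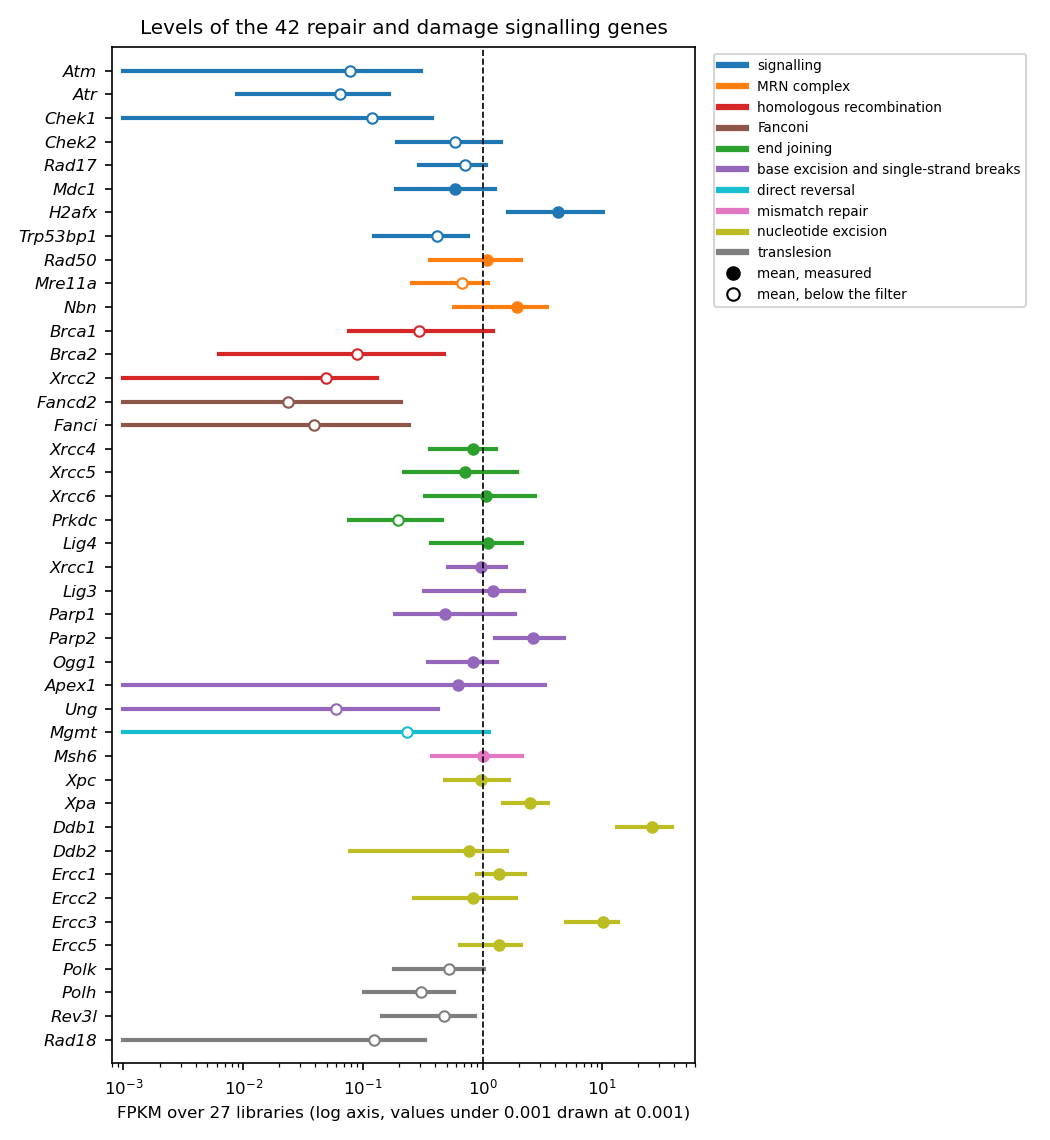
FPKM of the 42 genes on a log axis, coloured by role: each bar runs from the lowest to the highest of 27 libraries and the circle is the mean (filled, measured; open, below the filter; dashed line, 1 FPKM). Ddb1 and Ercc3 stand to the right of the rest, at means of 25.8 and 10.2 FPKM, and the recombination and Fanconi genes to the left.

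Calls were made with edgeR's quasi-likelihood test at an adjusted p under 0.05 over the 11118 genes. At 6 h after 15 Gy, 4 of the 23 measured genes were called higher (Xrcc1, Ddb1, Ercc2, Xpc) and 3 lower (Nbn, Xrcc4, Parp2) than control, where 29% of all genes tested were called. At 6 h after 6 Gy, 3 were higher (Mdc1, Rad50, Msh6) and 3 lower (Lig3, Ddb1, Ercc3), beside 28.4% of all genes. At 24 h after 6 Gy, 10 were higher (Parp1, Xrcc6, Xrcc5, Mdc1, Msh6, Ercc2, Xpc, H2afx, Xrcc1, Rad50) and Ercc1 was lower, beside 33% of all genes. With CBLB502 added to 6 Gy, 11 were higher and 0 lower (Apex1 and Parp2 among the 11, with Xpc not called), beside 37.3%. At 24 h after 15 Gy, Xrcc6 alone was higher, beside 4.94%. At 3 d, 4 were higher (Rad50, Xrcc5, Xpc, Mdc1) and 0 lower, beside 29.4%. In the 15 Gy group with CBLB502, 5 were higher and 0 lower (Xrcc6, Xpc, Mdc1, Rad50, Parp2), beside 16.9%. After CBLB502 alone, Ddb1 was higher, beside 5.74%. Kept in every run that left out 1 library were 3 of the 7 calls at 15 Gy 6 h, 2 of 6 at 6 Gy 6 h, 6 of 11 in each 6 Gy 24 h group, 0 of 1 at 15 Gy 24 h, 1 of 4 at 15 Gy 3 d, 2 of 5 at 15 Gy with CBLB502 and 1 of 1 after CBLB502 alone. The called share of the 23 was 47.8% at 6 Gy 24 h both without and with CBLB502, but 45% and 40% of 20 genes without Mdc1, Parp1 and Apex1, beside 33% and 37.3% of all genes. The 20 still hold Xrcc5, which was called in both groups and also needed their libraries to pass the filter. The shares of all genes were not restricted in the same way, so the shares are not fully alike. The called share of the 23 was 30.4% at 15 Gy 6 h, 26.1% at 6 Gy 6 h, 21.7% after 15 Gy with CBLB502 and 17.4% at 15 Gy 3 d, above the share of all genes in some comparisons and below it in others. The median log2 fold change of the 23 was 0.55 at 6 Gy 24 h, 0.52 with CBLB502 added, 0.53 after 15 Gy with CBLB502, 0.27 at 15 Gy 24 h, 0.19 at 6 Gy 6 h, 0.18 at 15 Gy 3 d, 0.09 after CBLB502 alone and 0.01 at 15 Gy 6 h, and that of all genes was between 0 and 0.07.

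**Figure D2:**
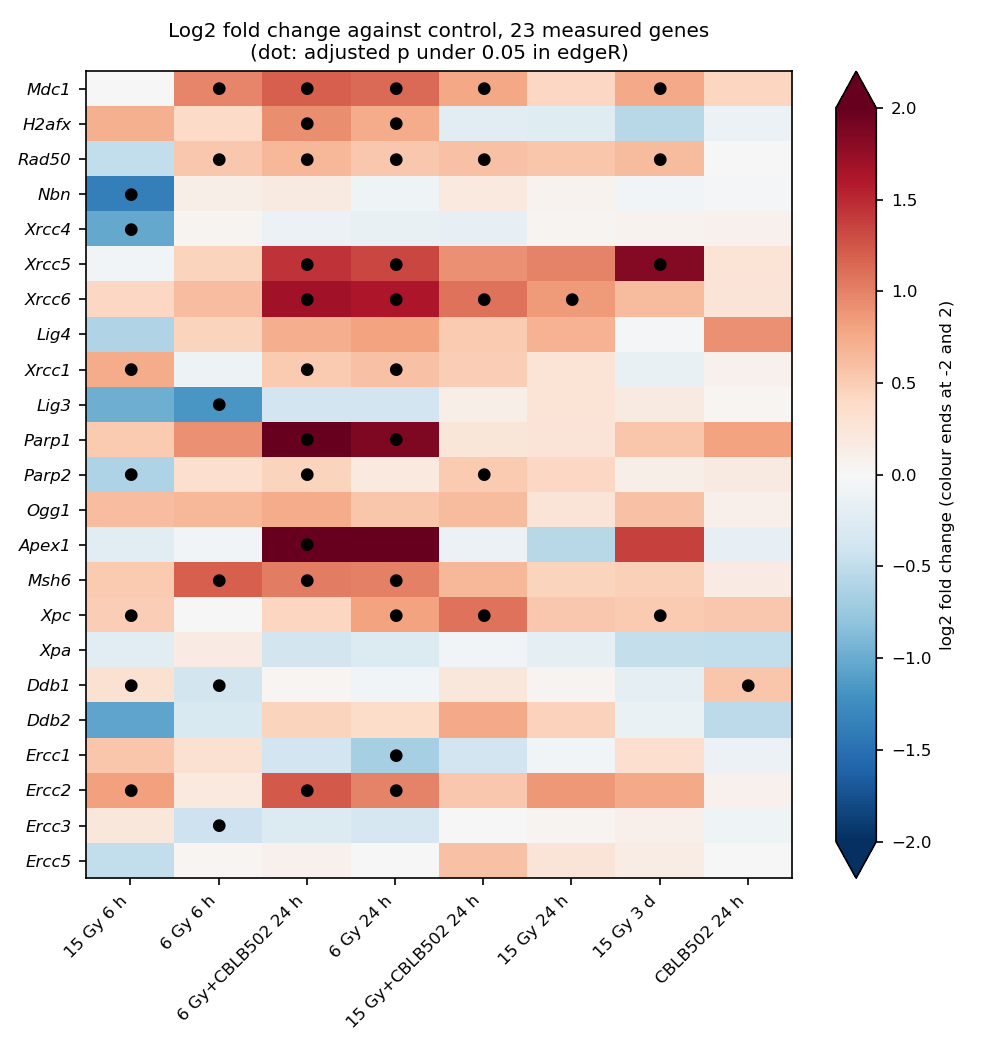
Log2 fold change against control of the 23 measured genes (rows) in 8 treated groups (columns), red for higher and blue for lower; a black dot marks an edgeR adjusted p under 0.05. Both 6 Gy 24 h columns hold 11 dots each, the 15 Gy 24 h and CBLB502 columns 1 each, and the blue cells with dots lie mainly at 6 h.

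**Figure D3:**
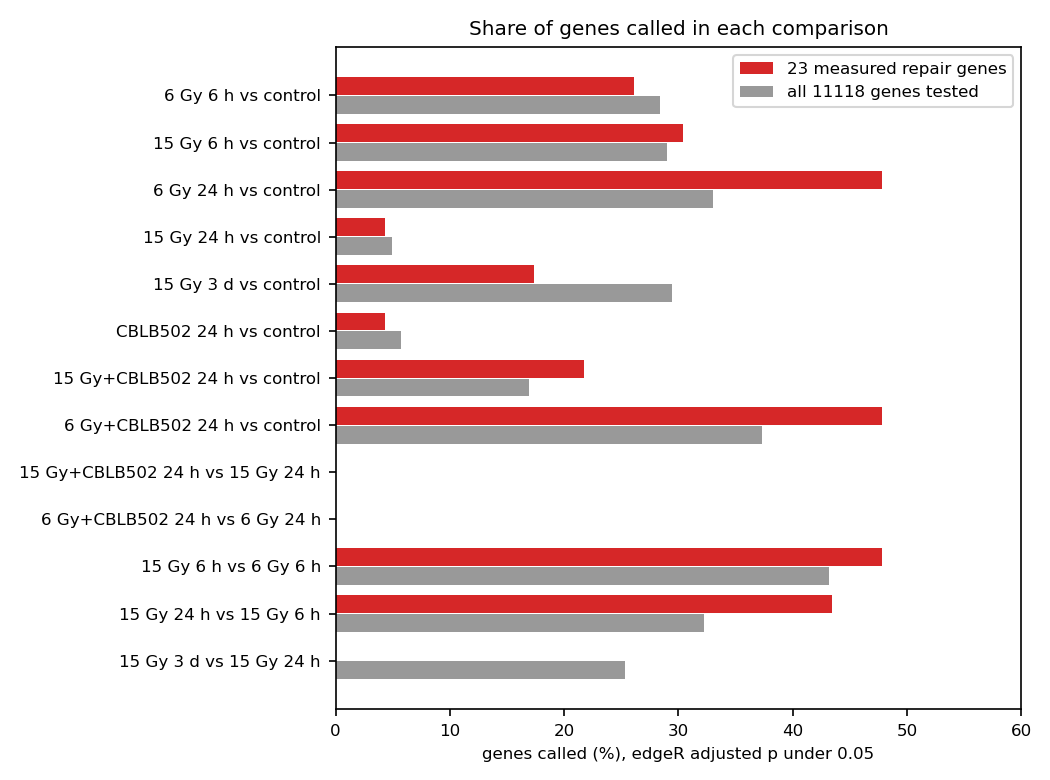
Share of genes called (percent, edgeR adjusted p under 0.05) among the 23 measured repair genes (red) and all 11118 genes tested (grey), for each of 13 comparisons between groups. At 15 Gy 3 d against 15 Gy 24 h none of the 23 was called, beside 25.3% of all genes.

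Among the break sensors of the Mre11-Rad50-Nbs1 complex, Nbn was called lower than control at 15 Gy 6 h. Nbn, which encodes the NBS1 subunit that recruits ATM, was at 2.34, 1.85 and 2.05 CPM at 15 Gy 6 h, against 4.98, 6.34 and 4.82 CPM in control. All 3 irradiated libraries lay below all 3 control libraries, and the gene fell by 1.37 on the log2 scale (SE 0.26, edgeR adjusted p = 0.000448). Rad50, the ATPase of the complex, was at 4.18, 2.50 and 3.29 CPM in the same libraries, against 4.60, 5.39 and 4.04 CPM in control; these ranges overlapped and the gene was not called (log2 fold change -0.49 ± 0.20 SE, edgeR adjusted p = 0.0656). At 6 Gy 6 h Nbn stood at 3.96, 7.25 and 6.22 CPM and spanned the control values, while Rad50 was at 5.90, 6.57 and 7.93 CPM, above every control library (log2 fold change 0.54 ± 0.20 SE, edgeR adjusted p = 0.0443, kept in 2 of the 6 runs that left out 1 library). Mre11a, the nuclease subunit, stayed below the filter at 1.80, 3.14 and 3.75 CPM at 15 Gy 6 h, against 3.59, 4.90 and 3.23 CPM in control (-0.37 ± 0.30 SE), and was not called in any comparison. Whether the 3 subunits differed from each other was not tested.

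The doses were compared directly at 6 h. At 15 Gy 6 h against 6 Gy 6 h, 4 of the 23 genes were called higher (Xrcc1, Ddb1, Ercc3, Xpc) and 7 lower (Nbn, Xrcc4, Rad50, Lig4, Mdc1, Parp2, Msh6), beside 43.2% of all genes tested; 11 of 23 is 47.8%, near that share. The median of the 23 was -0.37, against -0.03 for all genes. Nbn was lower by 1.48 (SE 0.26, edgeR adjusted p = 9.15e-05) and Rad50 by 1.03 (SE 0.20, edgeR adjusted p = 0.000246) on the log2 scale. Xrcc4, the scaffold that carries DNA ligase IV, was at 1.84, 1.96 and 2.15 CPM at 15 Gy 6 h and 3.25, 4.63 and 4.68 CPM at 6 Gy 6 h. Lig4, that ligase, was at 3.06, 2.46 and 3.17 CPM at 15 Gy 6 h and 5.16, 6.77 and 5.94 CPM at 6 Gy 6 h. Parp2, a break-sensing poly(ADP-ribose) polymerase, was at 5.45, 5.99 and 5.76 CPM at 15 Gy 6 h and 12.9, 9.01 and 11.4 CPM at 6 Gy 6 h. In each of these 3 genes every 15 Gy library lay below every 6 Gy library, with log2 fold changes of -1.08, -1.04 and -0.95. Msh6, the mismatch recognition subunit, and Mdc1 were also lower at 15 Gy 6 h, by 0.67 and 0.97; the call of Msh6 was kept in 2 of the 6 runs that left out 1 library, and that of Xpc in 1.

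Nbn, Xrcc4 and Parp2, which were called lower than control at 15 Gy 6 h, were higher again by 24 h. At 15 Gy 24 h against 15 Gy 6 h, 9 genes were called higher and H2afx lower, beside 32.2% of all genes. The 9 were Nbn, Rad50, Parp2, Xrcc4, Lig4, Lig3, Xrcc5, Ddb2 and Ercc5. Apart from Nbn, Parp2 and Xrcc4, they had not been called against control at 15 Gy 6 h. The calls against control, the dose difference at 6 h and this rise all rest on the same 3 libraries of 15 Gy 6 h. Nbn stood at 6.57, 5.94 and 4.43 CPM, Rad50 at 7.63, 6.65 and 6.42 CPM and Parp2 at 12.1, 12.4 and 10.6 CPM at 15 Gy 24 h. The log2 fold changes over that interval were 1.44 ± 0.26 for Nbn, 1.05 ± 0.20 for Rad50 and 1.03 ± 0.17 for Parp2 (SE; edgeR adjusted p = 0.000225, 0.000353 and 0.000104). Between 24 h and 3 d after 15 Gy, 0 of the 23 were called, beside 25.3% of all genes; at an unadjusted p under 0.05 there were 4 (Xrcc5, Xrcc1, Lig4, Ddb1), and DESeq2 called 0 and limma 1. Other features of the 15 Gy 6 h libraries moved with these genes. Their mitochondrial share of counts was 4.59% to 9.03%, against 13.7% to 28.7% at 6 Gy 6 h and 11.8% to 17.8% in control. Their 9 enterocyte markers summed to 145000 to 165000 CPM, against 52400 to 61700 CPM at 6 Gy 6 h and 107000 to 134000 CPM in control, with none at 0. Most of that sum was Apoa4 and Apoa1, at means of 69200 and 41000 CPM. The markers did not move together against control: 3 of the 9 were called higher and 2 lower, beside 29% of all genes. Fabp2 averaged 6470 ± 1280 CPM against 13100 ± 1700 CPM in control, and Sis 2160 ± 834 CPM against 5720 ± 612 CPM. In the same 15 Gy 6 h libraries the 4 goblet markers summed to 4740 to 8570 CPM, against 1340 to 4210 CPM at 6 Gy 6 h, and the pancreas markers to 0 to 0.0537 CPM, against 2.01 to 10.4 CPM at 6 Gy 6 h, with 5 of the 6 at 0. The part of these features in the result was not tested.

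**Figure D4:**
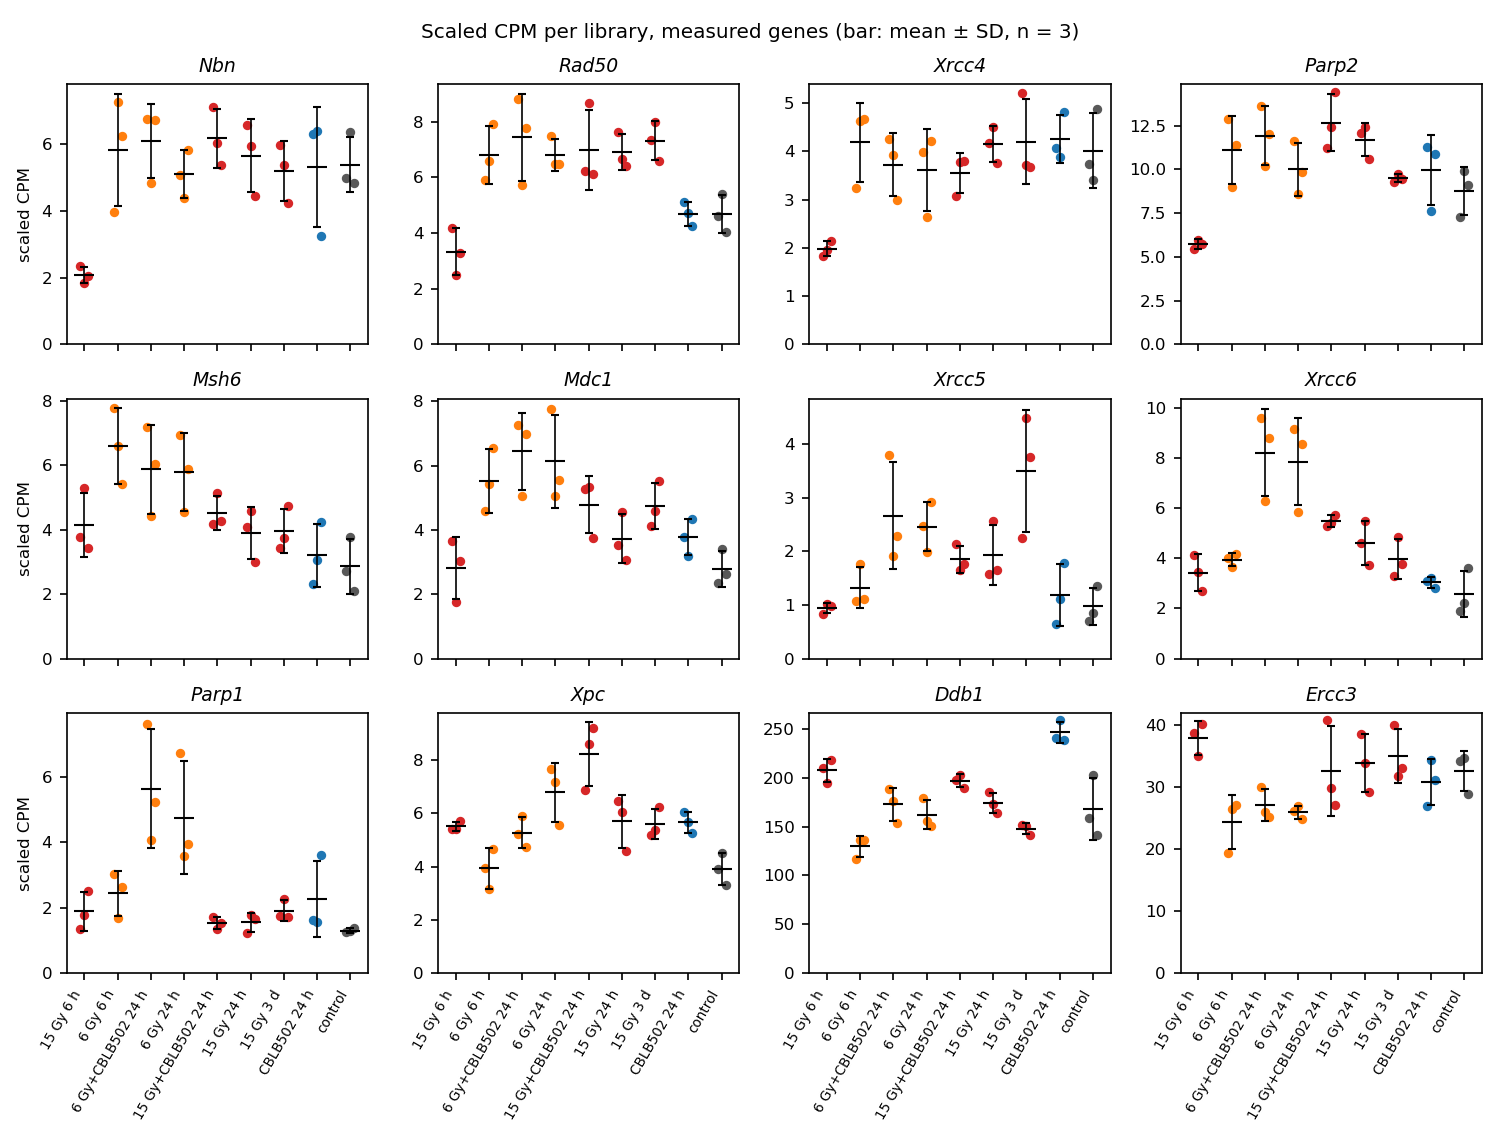
Scaled CPM of 12 measured genes in each library, with the mean and SD of 3 (15 Gy groups red, 6 Gy groups orange, CBLB502 without irradiation blue, control grey). Nbn, Xrcc4 and Parp2 are lowest at 15 Gy 6 h, Xrcc6 and Parp1 highest in both 6 Gy 24 h groups, and Ddb1 highest after CBLB502 without irradiation, at 239 to 259 CPM.

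In damage signalling, Mdc1 and H2afx were the measured genes. Mdc1, which binds phosphorylated H2AX and holds repair factors at the break, was at 4.58, 5.42 and 6.55 CPM at 6 Gy 6 h and 4.11, 4.60 and 5.51 CPM at 15 Gy 3 d, against 2.34, 3.41 and 2.62 CPM in control. Both irradiated groups lay wholly above control (log2 fold changes 0.98 ± 0.26 and 0.76 ± 0.26 SE, edgeR adjusted p = 0.00676 and 0.0303; the call at 3 d was kept in 2 of 6 runs that left out 1 library). With CBLB502 the gene was at 7.26, 5.06 and 6.99 CPM after 6 Gy and 5.26, 5.34 and 3.76 CPM after 15 Gy, also above every control library. At 15 Gy 6 h it spanned the control values, at 3.64, 1.76 and 3.03 CPM. H2afx, the histone variant marked at breaks, was at 10.1, 7.83 and 6.97 CPM at 15 Gy 6 h but 3.18, 3.37 and 6.21 CPM at 15 Gy 24 h, against 4.86, 4.38 and 5.93 CPM in control. The 24 h group was lower than the 6 h group by 0.96 (SE 0.28, edgeR adjusted p = 0.0121, kept in 3 of 6 runs that left out 1 library), and neither was called against control. H2afx was called higher in both 6 Gy 24 h groups, by 0.93 ± 0.28 with CBLB502 and 0.74 ± 0.28 without it (SE). These calls were kept in 4 and 2 of the 6 runs that left out 1 library, and the one without CBLB502 was also lost under median-ratio scaling, without the filter and with the compared groups alone (adjusted p up to 0.187).

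Mdc1 and Rad50 were each called in 5 of the 8 comparisons with control, and Xpc and Xrcc6 in 4, the most of the 23. Not all of these calls were stable: the 5 of Rad50 were all lost without the filter and with the compared groups alone, and were kept in 1 to 5 of the 6 runs that left out 1 library. Mdc1 was kept in all 6 such runs in 3 of its comparisons and in 2 of 6 at 15 Gy 3 d and at 15 Gy with CBLB502. Promoter sequence of 300 bases was at hand for 32 of the 42 genes (36 promoters), and among these 4 for Mdc1 and Xrcc6. The promoter of Mdc1 is shown because no gene was called in more comparisons with control; it lies at chr17:35841248-35841547 on the plus strand (RefSeq, GRCm38.p6), 250 bases before the start and 50 after. Capitals mark matches on either strand to E2F motifs (TTCCCGC, or else TTGGCGC, or else TTCGCGC), to the GC box (letters GGGCGG) and to the CCAAT box (its own letters).
Mdc1: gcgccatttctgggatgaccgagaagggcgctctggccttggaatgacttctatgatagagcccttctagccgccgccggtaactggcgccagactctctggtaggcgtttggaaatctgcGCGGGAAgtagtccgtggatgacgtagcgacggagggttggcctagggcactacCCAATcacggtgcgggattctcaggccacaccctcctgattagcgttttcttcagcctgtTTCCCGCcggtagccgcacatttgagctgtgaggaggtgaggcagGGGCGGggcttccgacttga
It held 2 E2F matches, 1 CCAAT box and 1 GC box. Rad50 and Xpc were not in the promoter table. Over the set, 41.7% of the 36 promoters held an E2F match, against 8.1% of all 32851 promoters in the table, and 61.1% held a GC box, against 35.7%. A CRE core (TGACGT) was in 22.2%, against 7.5% of all, and a CCAAT box in 38.9%, against 37.4%. The CHR element (TTTGAA) was in 2.8%, against 17.9%, and the p53 consensus decamer in 2.8%, against 8.4%. The median GC content was 59.2%, against 52.7% over all promoters, and these shares were not matched for it.

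Of the 4 measured end joining genes, the Ku genes were higher than control at 24 h or 3 d and Xrcc4 was lower at 6 h. Xrcc6 and Xrcc5 encode the smaller and the larger subunit of Ku, the ring that threads onto broken ends. Xrcc6 was at 4.60, 5.50 and 3.73 CPM at 15 Gy 24 h and 5.28, 5.42 and 5.74 CPM with CBLB502, against 1.90, 2.20 and 3.61 CPM in control. Every library of both groups lay above control (log2 fold changes 0.85 ± 0.24 and 1.09 ± 0.24 SE, edgeR adjusted p = 0.0456 and 0.00417). It reached 9.58, 6.27 and 8.77 CPM at 6 Gy 24 h with CBLB502 and 9.13, 5.86 and 8.55 CPM without it, among the libraries that stood apart (1.68 ± 0.24 and 1.61 ± 0.24). The call at 15 Gy 24 h was kept in 2 of the 6 runs that left out 1 library, and without the 6 libraries of 6 Gy 24 h it was lost (adjusted p up to 0.273 over the alternatives). Xrcc5 was highest at 15 Gy 3 d, at 2.25, 4.49 and 3.75 CPM against 0.709, 0.857 and 1.36 CPM in control, with no overlap (1.84 ± 0.37 SE, edgeR adjusted p = 0.000817). At 6 h after 15 Gy it was at 0.836, 1.01 and 0.976 CPM, within the control range. Both subunits of Ku were higher than control in both 6 Gy 24 h groups, whose libraries Xrcc5 needed to pass the filter. At 15 Gy 3 d Xrcc5 was called and Xrcc6, at 3.28, 4.86 and 3.76 CPM, was not. Xrcc4 fell at 15 Gy 6 h (-1.02 ± 0.22 SE, edgeR adjusted p = 0.00139) and was between 2.65 and 5.22 CPM in every other group. Lig4 was not called against control in any group, although it was highest after CBLB502 without irradiation, at 8.34, 10.4 and 6.10 CPM against 3.38, 5.56 and 4.20 CPM in control.

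The promoter of Xrcc6 lies at chr15:82016119-82016418 on the plus strand (RefSeq, GRCm38.p6) and is shown beside that of Mdc1 because Xrcc6 was called in every 24 h group that was irradiated. Capitals mark the same motifs.
Xrcc6: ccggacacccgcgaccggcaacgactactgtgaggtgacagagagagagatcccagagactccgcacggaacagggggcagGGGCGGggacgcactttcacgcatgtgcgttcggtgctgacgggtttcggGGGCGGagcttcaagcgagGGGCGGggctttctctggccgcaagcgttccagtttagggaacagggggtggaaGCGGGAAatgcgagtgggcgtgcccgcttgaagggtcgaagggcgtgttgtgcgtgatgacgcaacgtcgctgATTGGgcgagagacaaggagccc
It held 3 GC boxes, 1 E2F match and 1 CCAAT box. The table's gene model for Xrcc6 begins upstream of this window, so the start used here is that of RefSeq.

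Among single-strand break and base excision genes, Xrcc1 was higher and Parp2 lower at 15 Gy 6 h, and Parp1 was higher in both 6 Gy 24 h groups. Xrcc1, the scaffold of single-strand break repair, was at 7.79, 8.91 and 7.72 CPM at 15 Gy 6 h, against 3.79, 4.50 and 6.35 CPM in control, with every irradiated library above control (0.74 ± 0.18 SE, edgeR adjusted p = 0.00428). It was at 4.72, 4.18 and 4.76 CPM at 6 Gy 6 h, within the control range. Parp2 was lower than control in the same 15 Gy 6 h libraries (-0.61 ± 0.17 SE, edgeR adjusted p = 0.0104) and higher at 15 Gy 24 h with CBLB502, at 11.2, 12.4 and 14.4 CPM against 7.25, 9.92 and 9.08 CPM (0.53 ± 0.17, edgeR adjusted p = 0.0354, kept in 2 of 6 such runs). Lig3, the ligase partner of XRCC1, was at 3.30, 4 and 7.33 CPM at 6 Gy 6 h, against 13.4, 12.2 and 7.04 CPM in control; 1 library of each group overlapped (-1.16 ± 0.41 SE, edgeR adjusted p = 0.0379, kept in 2 of 6 runs that left out 1 library). Parp1, the main break-sensing polymerase, was at 7.61, 4.05 and 5.23 CPM at 6 Gy 24 h with CBLB502 and 6.72, 3.58 and 3.94 CPM without it, against 1.25, 1.27 and 1.37 CPM in control. At 15 Gy 24 h it was at 1.23, 1.76 and 1.66 CPM and was not called. Apex1, the endonuclease that cuts abasic sites, was at 3.67, 1.25 and 2.49 CPM at 6 Gy 24 h with CBLB502, against 0.586, 0 and 0.641 CPM in control, with no overlap (2.60 ± 0.94 SE, edgeR adjusted p = 0.0355, kept in 2 of 6 such runs). Ogg1, which removes oxidised guanine, was called in none of the 13 comparisons, and its log2 fold changes against control lay between 0.10 and 0.74. The single measured mismatch gene, Msh6, was higher at 6 Gy 6 h, at 7.77, 6.6 and 5.41 CPM against 2.73, 3.79 and 2.09 CPM in control (1.20 ± 0.27 SE, edgeR adjusted p = 0.00206).

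Called higher in both 6 Gy 24 h groups were Mdc1, H2afx, Rad50, Xrcc5, Xrcc6, Xrcc1, Parp1, Msh6 and Ercc2. Markers of dividing cells were higher there too. Of 14 measured proliferation genes of 21 listed, 10 were called higher with CBLB502 and 8 without it, and 0 lower in either. Mki67 passed the filter only through these groups, at 2.62 and 1.73 FPKM with CBLB502 and 1.87 and 1.15 FPKM without it. Its being higher there would follow in part from the filter, and the rest of the 14 were not checked for this. Of all genes tested 37.3% and 33% were called there, higher or lower. All 21 listed genes, measured or not, summed to 124 to 206 CPM and 96.7 to 181 CPM, against 73 to 89.4 CPM in control, with none at 0. Crypt stem cell markers summed to 14.7 to 32.3 CPM and 3.87 to 39.1 CPM, against 1.00 to 8.20 CPM in control, where Ascl2 was at 0 counts. Their part in the result was not tested. At 15 Gy 24 h, 0 of the 14 proliferation genes and 1 of the 23 measured repair genes, Xrcc6, were called, beside 4.94% of all genes tested.

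Of the 8 nucleotide excision genes, Ddb1 was the single gene called after CBLB502 without irradiation, and Xpc was called higher in 4 irradiated groups. Of those 4 Xpc calls, the ones at 6 Gy 24 h and at 15 Gy with CBLB502 were kept in all 6 runs that left out 1 library, the one at 15 Gy 3 d in 2 and the one at 15 Gy 6 h in 1. Ddb1 was at 241, 259 and 239 CPM after CBLB502 without irradiation, against 159, 203 and 141 CPM in control, all 3 above control (0.56 ± 0.11 SE, edgeR adjusted p = 0.00736). It was at 210, 195 and 218 CPM at 15 Gy 6 h and 117, 136 and 136 CPM at 6 Gy 6 h, called higher (0.31 ± 0.11 SE, overlapping control) and lower (-0.37 ± 0.11 SE, all 3 below control) than control; these calls were kept in 2 and 4 of 6 runs that left out 1 library. Between these doses the difference was 0.68 ± 0.11 (SE, edgeR adjusted p = 5.95e-05). Ercc3 also differed between the doses (0.64 ± 0.16 SE, edgeR adjusted p = 0.00235), at 38.7, 34.9 and 40.1 CPM at 15 Gy 6 h and 19.4, 26.5 and 27.1 CPM at 6 Gy 6 h, against 34.2, 34.7 and 28.9 CPM in control. Xpc, the damage sensor of global genome repair and a known p53 target, was highest at 15 Gy 24 h with CBLB502, at 6.90, 8.63 and 9.22 CPM, against 3.92, 4.50 and 3.32 CPM in control (1.08 ± 0.18 SE, edgeR adjusted p = 0.00056). At 15 Gy alone it was at 6.47, 6.07 and 4.58 CPM. At 6 Gy 6 h it was at 3.96, 3.16 and 4.68 CPM, spanning the control range. Ddb2, its partner in ultraviolet damage recognition, was not called against control in any group, and at 15 Gy 6 h held 1.69, 0.269 and 1.06 CPM, against 1.47, 1.89 and 2.92 CPM. Ercc2, the other TFIIH helicase, was at 6.15, 4 and 5.68 CPM at 6 Gy 24 h with CBLB502, against 1.74, 2.37 and 2.70 CPM in control (1.22 ± 0.30 SE). Ercc1, of the nuclease that cuts on the 5′ side of a lesion, was the single gene lower at 6 Gy 24 h, at 3.14, 3.30 and 2.48 CPM against 4.38, 5.66 and 4.19 CPM (-0.67 ± 0.24 SE, edgeR adjusted p = 0.0357, kept in 2 of 6 runs that left out 1 library). Xpa, which verifies the lesion, was called in none of the 13 comparisons, and Ercc5, the nuclease on the 3′ side, in none with control.

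Whether CBLB502 changed these genes after irradiation was tested directly. At 15 Gy with CBLB502 against 15 Gy at 24 h, 0 of the 23 genes and 0% of all genes were called by edgeR; at an unadjusted p under 0.05 there were 1 of the 23 and 867 genes, and neither DESeq2 nor limma called any of the 23. The 1 was Xpc, higher by 0.53 on the log2 scale (95% interval 0.16 to 0.90, edgeR adjusted p = 0.527), with its 3 libraries above the 3 of 15 Gy. For Rad50 the interval was -0.39 to 0.43, for Parp2 -0.24 to 0.47 and for Ddb1 -0.06 to 0.42. Of the 23 intervals, 20 lay within -1 and 1, and Apex1 had the widest, -1.49 to 2.36. At 6 Gy with CBLB502 against 6 Gy at 24 h, 0 of the 23 and 0% of all genes were called; at an unadjusted p under 0.05 there were 0 of the 23 and 303 genes, DESeq2 and limma called none of the 23, and 21 intervals lay within -1 and 1. The interaction of CBLB502 and 15 Gy called 0 of the 23, beside 0.225% of all genes; at an unadjusted p under 0.05 there were Ddb1 (-0.38), Xpa (0.61) and Lig4 (-1.08), and DESeq2 and limma called none of the 23. Of the 19 genes below the filter, edgeR called 0 in each of these 3 comparisons, beside 0.00317%, 0% and 0.073% of all genes in the fit without the filter, and at an unadjusted p under 0.05 there were 1, 0 and 0. These intervals do not show that the groups were alike.

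The 19 genes below the filter were tested in a fit without it, over 31513 genes with at least 1 count. The share of all genes called is lower in that fit than among the 11118 that passed the filter, as at 15 Gy 6 h, with 9.31% against 29%. Counts of the 19 are therefore not read as an excess over the shares beside them. Against control, 1 was called higher and 3 lower at 15 Gy 6 h (9.31% of all genes in that fit), 4 higher at 6 Gy 6 h (8.4%), 3 higher at 6 Gy 24 h (9.64%) and 5 higher with CBLB502 added (11.8%). At 15 Gy 24 h 1 was higher (0.831%), at 3 d 3 (9.32%) and after 15 Gy with CBLB502 5 (4.06%). Of those 5, Chek2, Brca1 and Fancd2 were kept in 0 of the 6 runs that left out 1 library, Prkdc in 1 and Mgmt in 4. After CBLB502 alone edgeR called 0 (1.11%), with 2 at an unadjusted p under 0.05. Brca1, which acts in homologous recombination, was at 7.77, 8.83 and 11.6 CPM at 15 Gy 3 d, against 0.894, 0.991 and 0.999 CPM in control. All 3 libraries lay above every library of the other 8 groups, the highest of which was 3.52 CPM, and the gene was higher by 3.26 on the log2 scale (SE 0.33, edgeR adjusted p = 1.15e-07). Against 15 Gy 24 h, where it was at 2.44, 1.48 and 1.63 CPM, it was higher by 2.32 (SE 0.31, edgeR adjusted p = 1.16e-05), beside 7.62% of all genes called. At 6 Gy 6 h it was at 3.52, 2.67 and 2.91 CPM (1.62 ± 0.31 SE, edgeR adjusted p = 0.000733), and at 15 Gy 6 h 0.836, 0.833 and 1.42 CPM. In the 15 Gy 3 d libraries the proliferation list summed to 85.4 to 97.4 CPM, against 73 to 89.4 CPM in control, with 4 genes called higher and 2 lower of 14, and Mki67 at 3.74, 4.77 and 9.55 CPM against 5.58, 3.08 and 9.06 CPM. The 4 Paneth cell markers summed to 381 to 821 CPM, against 43.2 to 95 CPM, with none at 0; their part in the result was not tested.

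The promoter of Brca1 is shown for that course; the gene was chosen for it after its values were seen. It lies at chr11:101551906-101552205 on the minus strand (RefSeq, GRCm38.p6), with capitals as above.
Brca1: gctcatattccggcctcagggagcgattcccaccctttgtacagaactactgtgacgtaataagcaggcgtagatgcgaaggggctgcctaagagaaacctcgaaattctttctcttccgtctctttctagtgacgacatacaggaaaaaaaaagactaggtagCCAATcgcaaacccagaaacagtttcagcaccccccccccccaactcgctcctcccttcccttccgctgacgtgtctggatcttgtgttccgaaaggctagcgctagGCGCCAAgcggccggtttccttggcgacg
It held 1 E2F match and 1 CCAAT box and no GC box.

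Brca2, also of homologous recombination, was at 4.78, 2.72 and 4.37 CPM at 6 Gy 6 h and 1.84, 6.49 and 1.5 CPM at 15 Gy 3 d, against 0.355, 0.214 and 0.969 CPM in control. Every library of both groups lay above control (2.91 ± 0.69 and 2.66 ± 0.68 SE, edgeR adjusted p = 0.00581 and 0.0114), and the call at 3 d was kept in 3 of the 6 runs that left out 1 library. Chek2, the kinase below ATM, was at 2.16, 2.31 and 2.30 CPM at 6 Gy 6 h, against 0.925, 0.817 and 1.07 CPM (1.23 ± 0.32 SE, edgeR adjusted p = 0.0143). Mgmt, which reverses alkylated guanine, held 4 counts in the 3 control libraries together and 0 counts after CBLB502 alone, where 3 counts would be 0.0156 CPM. It was at 1.06, 1.40 and 1.95 CPM at 15 Gy 3 d and 2.56, 1.08 and 1.41 CPM at 6 Gy 24 h with CBLB502, and was called higher than control in all 7 irradiated groups (edgeR adjusted p between 0.00021 and 0.0323). The calls at 6 Gy 6 h and at 15 Gy 24 h were each kept in 3 of the 6 runs that left out 1 library and lost without the 6 libraries of 6 Gy 24 h, and the first was also lost under the replicate block. Fancd2, of crosslink repair, had 0 counts in control, 15 Gy 6 h and 15 Gy 24 h; over the group it was at least 44.4-fold higher than control at 6 Gy 24 h with CBLB502, 22.1-fold without it and 16.9-fold at 15 Gy with CBLB502, reckoned against 3 counts in the 3 control libraries. With CBLB502 after 6 Gy it was at 1.3, 0.208 and 0.421 CPM, and without the highest library of each group these bounds were 21.7-fold, 16.1-fold and 10.4-fold. The call at 6 Gy 24 h without CBLB502 was kept in 3 of the 6 runs that left out 1 library.

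Low genes also differed between the doses at 6 h. At 15 Gy 6 h against 6 Gy 6 h, 9 of the 19 were called lower and 0 higher, beside 15.9% of all genes in that fit: Atm, Atr, Rad17, Trp53bp1, Brca1, Brca2, Prkdc, Polk and Rev3l. Of the 11118 genes that passed the filter 43.2% were called there, so the 9 are not read as an excess. Of the 9, Atm was kept in 2 and Polk in 3 of the 6 runs that left out 1 library. Rad17, which loads the checkpoint clamp, was at 2.93, 3.01 and 3.14 CPM at 15 Gy 6 h and 7.08, 8.84 and 7.70 CPM at 6 Gy 6 h, against 5.15, 6.04 and 6.53 CPM in control. Rev3l, the catalytic subunit of translesion polymerase zeta, was at 2.81, 2.43 and 2.31 CPM at 15 Gy 6 h and 6.57, 7.69 and 8.90 CPM at 6 Gy 6 h, against 7.22, 6.61 and 4.65 CPM in control. Both fell below control at 15 Gy 6 h (-0.91 ± 0.18 and -1.23 ± 0.23 SE, edgeR adjusted p = 0.00125 and 0.000747), with no overlap. Atr, the kinase of replication stress, was at 0.640, 0.497 and 0.293 CPM at 15 Gy 6 h, against 0.771, 1.37 and 1.97 CPM in control (-1.45 ± 0.44 SE, edgeR adjusted p = 0.0357, kept in 2 of 6 runs that left out 1 library). Trp53bp1, which steers ends towards joining, was at 2.09, 4.23 and 3.25 CPM at 15 Gy 6 h and 7.77, 7.84 and 9 CPM at 6 Gy 6 h. By 24 h after 15 Gy, Rad17, Rev3l, Atr and Prkdc, the catalytic kinase of end joining, were higher than at 6 h (1.11, 1.36, 1.55 and 1.27), beside 11% of all genes; the call of Atr was kept in 3 of 6 such runs. Chek1, the kinase below ATR, was not called in any comparison; at 6 Gy 24 h it was at 1.5, 0.862 and 0.750 CPM against 0.247, 0.308 and 0.328 CPM in control. Xrcc2, Fanci, Ung, Polh and Rad18 were likewise not called.

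**Figure D5:**
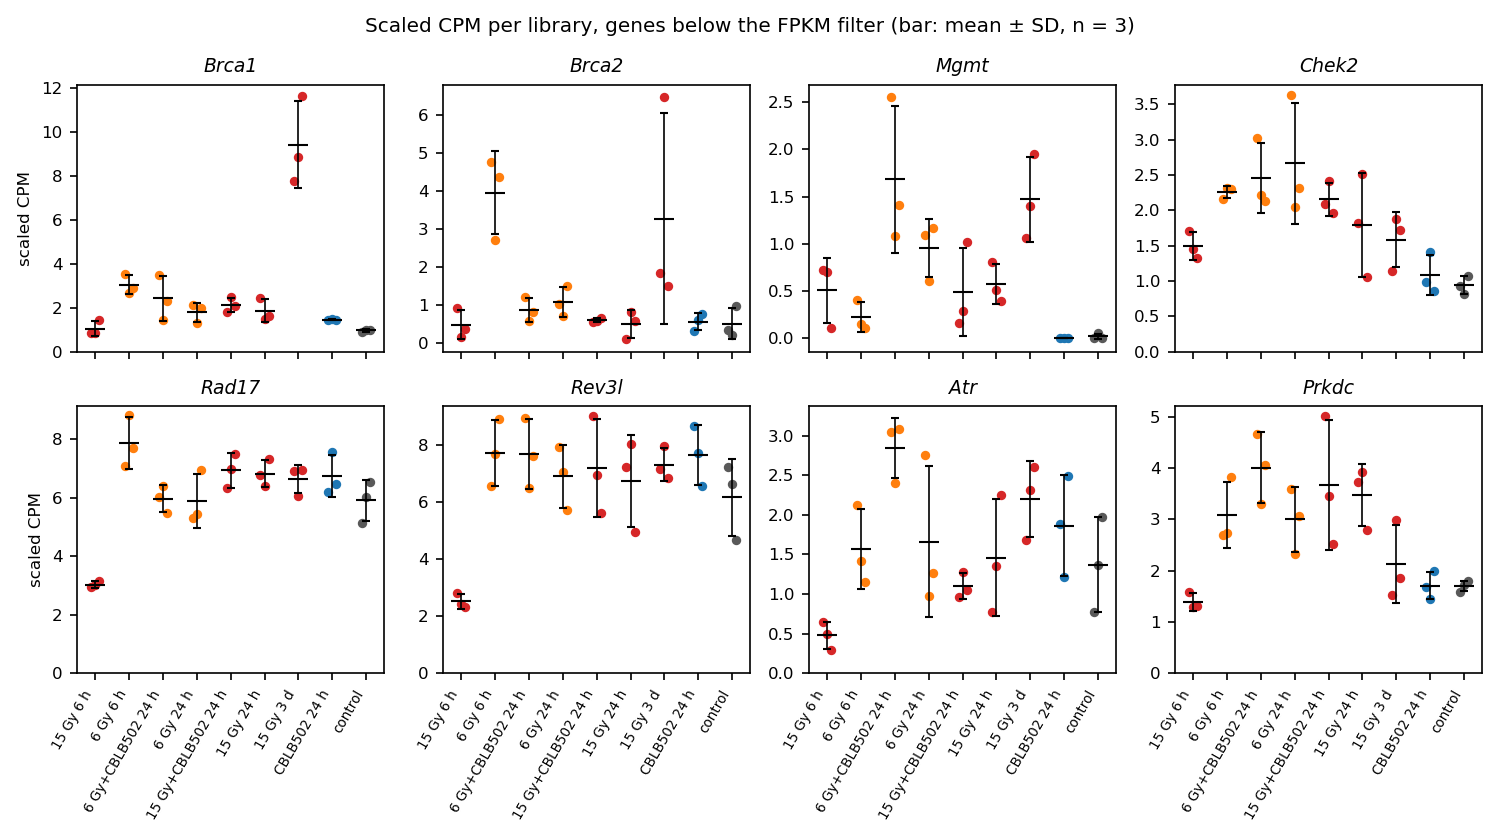
Scaled CPM in each library of 8 genes below the FPKM filter, with the mean and SD of 3 (colours as in the plot of measured genes). Brca1 stands at 7.77 to 11.6 CPM at 15 Gy 3 d, and Rad17 and Rev3l are lowest at 15 Gy 6 h, at 2.93 to 3.14 and 2.31 to 2.81 CPM.

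Further genes of the same pathways are given for comparison. Of 81 further repair genes, 41 were measured. At 15 Gy 6 h 6 were called higher and 5 lower, at 6 Gy 6 h 10 higher and 2 lower, at 6 Gy 24 h 10 higher and 3 lower, at 15 Gy 24 h 1 higher and at 15 Gy 3 d 5 higher and 1 lower. Of all genes tested 29%, 28.4%, 33%, 4.94% and 29.4% were called, in the same order. At 15 Gy 6 h against 6 Gy 6 h, 3 were higher and 11 lower. These 14 of 41 are a smaller share than the 43.2% of all genes called there. The log2 fold changes of the 41 ran from -2.03 to 1.68, and Rfc1 and Tdp2, given next, are among the lower. Rfc1, of the complex that loads the sliding clamp, averaged 2.71 ± 0.331 CPM at 15 Gy 6 h and 10.3 ± 2.13 CPM at 6 Gy 6 h (SD, n = 3 each; -1.92 ± 0.19 SE, edgeR adjusted p = 1.3e-07). Tdp2, which removes topoisomerase from DNA ends, averaged 22.6 ± 4.35 CPM and 92.0 ± 8.03 CPM there (-2.03 ± 0.25 SE, edgeR adjusted p = 2.05e-06). Slx4, a scaffold of structure-specific nucleases, averaged 31.0 ± 4.59 CPM at 15 Gy 24 h with CBLB502 and 22.5 ± 2.47 CPM without it, against 11.9 ± 2.88 CPM in control, and was the single further gene called at 15 Gy 24 h. Rbbp8, the resection factor CtIP, was lower than control in 5 groups, by 1.41 at 15 Gy 6 h (SE 0.24).

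Several of these genes share exon bases with a gene on the opposite strand, and whether counting used strand is not given in the sources used here, so their reads may be mixed. Apex1 shares 61.7% of its exon bases with Pip4p1, Lig3 25.1% with Rffl and Ddb2 23.8% with Acp2. Fanci shares 16.0% with Polg, Trp53bp1 15.0% with Tubgcp4, Xrcc6 7.69% with Desi1 and Ddb1 5.12% with Tkfc. Pip4p1 changed by 0.23 ± 0.34 at 6 Gy 24 h with CBLB502, Desi1 by 0.06 ± 0.15 at 15 Gy 24 h, Rffl by -0.76 ± 0.29 at 6 Gy 6 h and Tkfc by 0.39 ± 0.20 after CBLB502 alone (log2, SE), and none of these was called. Other partners were called the same way as their gene in some comparisons and not in others. Tkfc was higher at 15 Gy 6 h against 6 Gy 6 h (0.60 ± 0.20), as was Ddb1, and its mean there was 461 CPM. Tmem167, which shares 2.66% of the exon bases of Xrcc4, was lower at 15 Gy 6 h than in control (-0.58 ± 0.15) and higher at 15 Gy 24 h than at 6 h (0.80 ± 0.15), as was Xrcc4; between the doses at 6 h it was not called (-0.13 ± 0.15). Fbxo11, which shares 0.782% of those of Msh6, was lower at 15 Gy 6 h than at 6 Gy 6 h (-1.40 ± 0.21), as was Msh6. The values of Ddb1, Xrcc4 and Msh6 in these comparisons are therefore uncertain. The same partners were also called where their gene was not. Fbxo11 was lower at 15 Gy 6 h than in control (-1.06 ± 0.21), where Msh6 was not called. Tmem167 was lower at 15 Gy 3 d than in control (-0.56 ± 0.15), where Xrcc4 was not called. Tkfc was lower at 15 Gy 24 h than at 6 h (-0.85 ± 0.20), where Ddb1 was not called.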

How the data were processed

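Bulk RNA-seq of mouse intestine was analysed in 27 libraries, 9 groups of 3 by the sample labels. The authors deposited 1 table of whole-number counts per gene and of FPKM values, in which 0 counts are listed as 0.0001 FPKM; Bowtie 0.12.2, HISAT2 2.0, StringTie 1.3.0 and build mm8 are named per the submitters' processing notes, with no role. No source used here names the counter, the strand setting or the annotation; the table's gene coordinates were those of a GRCm38 annotation (GENCODE vM21) for 34 of the 42 genes, so promoter coordinates are given on GRCm38.

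The 11118 of 55401 genes at 1 FPKM or more in 3 or more libraries were tested on the deposited counts with edgeR 4.0.16 (R 4.3.3): TMM scaling, 1 quasi-likelihood fit over all 27 libraries, Benjamini-Hochberg adjustment over all genes tested and a threshold of 0.05. Standard errors are the log2 fold change over the root of F, and intervals are 95%. CPM uses the TMM-scaled totals, which were 57438640 to 87083059 counts before scaling; intervals and floors of 3 counts cover counting error and the fitted spread only. Genes below the filter were tested in a fit over the 31513 genes with a count. Alternatives were median-ratio scaling, no filter, DESeq2 1.42.0, limma 3.58.1 on log2(FPKM + 1), a replicate block, the compared groups alone, leaving out the 6 libraries of 6 Gy 24 h, and leaving out each library. The fits were tested on simulated counts. Libraries of a group differed beyond counting noise (chi-square per degree of freedom 145 to 1280), and the common dispersion gave a coefficient of variation of 31%.

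The members and gene lists were chosen with earlier results of these data known. Values per library are given for genes called against control with no overlap, up to 6 per comparison and direction, and for the best-known signalling genes; the other genes given so, among them those below the filter, were chosen after their values were seen. Promoters were for the genes called in the most comparisons with control, and Brca1 was added after its values were seen.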

Additional observations from a re-analysis of the deposited data

How the results depend on the processing

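Of the 67 called values of the 23 measured genes, DESeq2 kept 67 and lost 0, median-ratio scaling kept 63 and lost 4, the replicate block kept 59 and lost 8, limma on log2(FPKM + 1) kept 49 and lost 18, no filter kept 41 and lost 26, and the compared groups alone kept 34 and lost 33. Without the 6 libraries of 6 Gy 24 h, 35 of 45 were kept. None changed direction, 34 were kept in every run that left out 1 library and 29 also under every other alternative. Of 40 called values of genes below the filter, 18 were kept in every such run. Limma, on FPKM without TMM scaling, moved the median of all genes by 0.45 at 6 Gy 24 h and 0.47 with CBLB502. The TMM factors were 1.23 to 1.43 in those 6 libraries and 0.861 to 0.864 in control, and their part was not tested. The filter at 1 FPKM used the same unscaled FPKM.

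Counts of the 23 genes called moved as follows, and the cause was not tested. Where no share or count of all genes stands beside them, here and in the next paragraph, the counts are not read as particular to the 23. Without the filter, where more genes are adjusted over, there were 3 at 15 Gy 6 h, 2 at 6 Gy 6 h, 7 at 6 Gy 24 h, 0 at 15 Gy 24 h, 1 at 15 Gy 3 d, 2 at 15 Gy with CBLB502 and 7 at 6 Gy with CBLB502. Of all genes in that fit, 9.31%, 8.4%, 9.64%, 0.831%, 9.32%, 4.06% and 11.8% were called, in the same order. These shares include the genes below the filter, while the 23 passed it, so the 2 are not alike. With the compared groups alone, where fewer libraries set the spread, there were 2, 2, 7, 0, 1, 1 and 7 in the same order, 0 after CBLB502 alone, 6 at 15 Gy 24 h against 6 h and 1 at 15 Gy 3 d against 24 h. Limma gave 3 at 15 Gy 6 h, 2 at 6 Gy 6 h, 0 at 15 Gy 24 h, 0 after CBLB502 alone, 18 at 6 Gy with CBLB502 and 1 at 15 Gy 3 d against 24 h. Of the 11118 genes limma called 2135, 2534, 238, 356, 6562 and 2370, in that order. DESeq2 gave 2 at 15 Gy 24 h, 7 at 15 Gy 3 d and 2 after CBLB502 alone, beside 1071, 3625 and 1129 of the 11118. Without the 6 libraries there were 4 at 15 Gy 6 h, 0 at 15 Gy 24 h and 2 at 15 Gy with CBLB502. With the replicate block there were 0 at 15 Gy 24 h and 3 at 15 Gy with CBLB502; in 0 of 36 pairs of groups did all same-numbered libraries correlate over 0.1, so the numbers were not taken as pairs.

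Leaving out 1 library at a time gave 4 to 8 calls at 15 Gy 6 h, 3 to 6 at 6 Gy 6 h, 6 to 10 at 6 Gy 24 h, 0 to 1 at 15 Gy 24 h, 2 to 5 at 15 Gy 3 d, 1 after CBLB502 alone, 2 to 7 at 15 Gy with CBLB502 and 6 to 10 at 6 Gy with CBLB502. Between treated groups it gave 8 to 11 at 15 Gy against 6 Gy at 6 h, 6 to 9 at 15 Gy 24 h against 6 h, 0 to 1 at 15 Gy 3 d against 24 h, and 0 in both comparisons of CBLB502 after irradiation and in the interaction. The low levels limit precision: 19 of the 42 genes stayed below 1 FPKM in all but 2 or fewer libraries.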
